A study of Mus musculus with 10 samples.

Results

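The macrophage genes are a set of 10 genes that macrophages are known to use, of which 9 are described here: *C1qa*, *C1qb*, *C1qc*, *Csf1r*, *Itgam*, *Mrc1*, *Cd163*, *Cd68* and *Lyz2*. They were chosen by gene symbol from the deposited table of 47069 mouse genes, and the 9 symbols matched 10 gene IDs, because *Itgam* is listed under a second ID that held only 2 counts in all and was not tested. Their read counts and FPKM were followed across 10 RNA-seq libraries of intestinal organoids, which are small cultures grown from intestinal crypts in Matrigel with Noggin, EGF and R-spondin-1 and sampled at 50 days. The libraries fall into 5 groups of 2. All organoids came from C57BL/6 mice that carried Lgr5-EGFP-CreERT2 and *Ppp2r1a* flox/flox, so the controls shared both alleles. The Cre is driven by the Lgr5 promoter of crypt stem cells and is active only with tamoxifen (TAM), and *Ppp2r1a* encodes the scaffold subunit of the phosphatase PP2A. Control organoids received saline, DMBA organoids the carcinogen DMBA under a label that also says long, TAM short and TAM long organoids a tamoxifen treatment that the labels call dosage-sensitive, and DMBA+TAM organoids both agents. What short and long stand for is not given in the sources used here, nor is it stated whether the pairs of libraries came from separate mice or cultures, so that the p-values measure the spread between these libraries, which may be technical.

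Macrophages are phagocytes of the tissue, and in the intestine they sit in the connective tissue under the epithelium, where they clear dead cells and bacteria. Many depend on the receptor *Csf1r* and its ligands for survival, and they are a main source of C1q, the protein that starts the classical complement pathway. Intestinal epithelial cells are not counted among the main sources of C1q or the scavenger receptors, and organoids grown from crypts are usually described as epithelial cultures.

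The library totals ranged from 8828247 to 10923673 counts in the control, DMBA, TAM short and TAM long libraries and were 1592366 and 1915270 in the DMBA+TAM libraries. At those depths, 3 counts correspond to 0.258 to 0.378 normalized CPM (counts scaled to the library total and edgeR's TMM factors) in the first 8 libraries and to 1.58 and 1.32 in DMBA+TAM. The DMBA+TAM libraries did not hold the epithelial markers that the label of an intestinal organoid leads one to look for. Summed over 10 epithelial genes, they stood at 36.3 and 36.1 normalized CPM, against 13919 to 23592 in the other 8 libraries, and *Vil1*, the villin of the brush border, had 1 count in each. The values of DMBA+TAM below are therefore those of libraries with almost no epithelial RNA, and in such bulk samples a change in the number of cells of a type and a change in the RNA per cell cannot be told apart. *Ppp2r1a* itself was at 123 and 129 normalized CPM in control and 129 and 133 in DMBA+TAM (log2 fold change 0.06, adjusted p = 0.687, edgeR), but counts over a whole gene do not separate the floxed part from the rest, so that it checks no label. The groups follow the treatment labels, which the library names do not repeat: control and DMBA libraries have names that begin with N, those of TAM short and TAM long with DSS, and those of DMBA+TAM with Lgr5, and what N and DSS stand for here is not given in the sources used here. DMBA and TAM long share the word long in their labels, and just before the replicate number their library names hold an L, where those of control and TAM short hold an S, so that in DMBA against control the agent and whatever long stands for cannot be told apart.

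The C1q genes encode the 3 chains of 1 secreted protein and lie side by side on the minus strand of chromosome 4 (GRCm38), each with 3 exons. In the deposited table, *C1qb* (ENSMUSG00000036905) spans chr4:136880129-136886187, *C1qc* (ENSMUSG00000036896) chr4:136889804-136893065 and *C1qa* (ENSMUSG00000036887) chr4:136895917-136898803, a cluster of 18675 bases in all. Their coding sequences (GENCODE M21) were 51.2 to 54.9% identical in pairwise alignment, and the longest run that a pair shared was 15 bases.

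*C1qa* stood at 52.4 and 59.0 normalized CPM in control, 57.7 and 69.9 in DMBA, 75.3 and 70.0 in TAM short, 65.8 and 58.0 in TAM long, and 1064.6 and 1020.5 in DMBA+TAM. *C1qb* stood at 22.8 and 24.8, 28.2 and 33.4, 38.6 and 32.5, 32.0 and 27.9, and 585 and 567 in the same order. *C1qc* stood at 30.5 and 34.3, 33.8 and 44.8, 50.6 and 46.5, 37.9 and 33.9, and 752 and 699. All 3 chains were therefore high in both DMBA+TAM libraries and low in the other 8, with no overlap, and TAM short had the second highest mean in each, although for *C1qb* it overlapped DMBA. The neighbours in the order below TAM short, DMBA and TAM long, overlapped in all 3 chains, and for *C1qa* and *C1qc* TAM long also overlapped control. Against control, the log2 fold changes in DMBA+TAM were 4.23 ± 0.15 (SE) for *C1qa*, 4.6 ± 0.15 for *C1qb* and 4.49 ± 0.17 for *C1qc*, with adjusted p of 2.12e-08, 1.69e-08 and 2.48e-08 (edgeR's quasi-likelihood test, Benjamini-Hochberg over 16179 genes).

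The proportions of the 3 chains to each other moved far less than their levels. On the FPKM scale, which divides by gene length and allows genes to be compared, *C1qa* made 46.7 to 51.0% of the summed C1q FPKM in the 8 other libraries and 45.3 and 45.6% in DMBA+TAM. *C1qb* made 20.4 to 23.0% against 23.8 and 24.2%, and *C1qc* made 27.5 to 30.8% against 30.9 and 30.2%. *C1qa* was the highest chain in every library, and these shares are given as a description without a test.

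*Csf1r* (ENSMUSG00000024621, chr18:61105572-61132149, plus strand), the receptor of CSF1 and IL-34, stood at 20.5 and 23.7 normalized CPM in control, 25.9 and 30.7 in DMBA, 37.3 and 25.7 in TAM short, 17.2 and 19.0 in TAM long, and 452 and 388 in DMBA+TAM. DMBA+TAM lay far above all others, and TAM short overlapped DMBA, whereas DMBA, control and TAM long did not overlap each other. *Csf1r* was 4.25 ± 0.20 higher than control on the log2 scale in DMBA+TAM (adjusted p = 8.03e-08, edgeR). Its position overlaps 2 other listed genes, of which *Hmgxb3* is expressed. The library kit is not described as marking the strand, so that a share of such reads cannot be assigned.

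*Itgam* (ENSMUSG00000030786, chr7:128062640-128118491, plus strand) encodes CD11b, an integrin chain of macrophages, monocytes and neutrophils. It stood at 6.4 and 5.5 normalized CPM in control, 3.7 and 2.6 in DMBA, 12.5 and 9.9 in TAM short, 3.2 and 3.3 in TAM long, and 82.7 and 73.0 in DMBA+TAM. DMBA and TAM long overlapped each other and lay below control, and TAM short lay above it. *Itgam* was the member with the narrowest gap, as its lower DMBA+TAM library was 5.83 times the highest other library, TAM short 1, and its log2 fold change against control was 3.70 ± 0.21 (adjusted p = 2.74e-07, edgeR).

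The scavenger receptors showed the widest gaps. *Mrc1* (ENSMUSG00000026712, chr2:14229392-14332057, plus strand), the mannose receptor, stood at 14.2 and 13.9 normalized CPM in control, 21.7 and 21.3 in DMBA, 21.9 and 16.1 in TAM short, 20.8 and 25.7 in TAM long, and 987 and 747 in DMBA+TAM. *Cd163* (ENSMUSG00000008845, chr6:124304656-124330527, plus strand), which takes up haptoglobin-bound hemoglobin, stood at 4.2 and 4.0, 3.1 and 3.3, 9.0 and 4.5, 0.861 and 2.75, and 346 and 328. Both were low in every library but those of DMBA+TAM, and their order among the other groups was not the same, as TAM long had the second highest mean for *Mrc1*, where it overlapped DMBA and DMBA overlapped TAM short, and was lowest for *Cd163* without overlap. Against control they were 5.94 ± 0.22 and 6.37 ± 0.37 higher on the log2 scale (adjusted p = 2.25e-08 and 3.11e-07, edgeR). The lower DMBA+TAM library was 29.1 times the highest other library for *Mrc1* and 36.4 times for *Cd163*, the latter being the largest such ratio of the 9 genes.

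*Cd68* (ENSMUSG00000018774, chr11:69664213-69666153, minus strand), a membrane protein of phagocyte lysosomes, stood at 2.7 and 3.1 normalized CPM in control, 4.6 and 5.3 in DMBA, 3.8 and 4.3 in TAM short, 4.1 and 4.9 in TAM long, and 139 and 147 in DMBA+TAM. *Cd68* was lowest in control and overlapped between DMBA and TAM long. Against control, it was 5.61 ± 0.18 higher on the log2 scale in DMBA+TAM (adjusted p = 1.23e-08, edgeR).

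*Lyz2* (ENSMUSG00000069516, chr10:117277334-117282274, minus strand) encodes the lysozyme of macrophages and neutrophils. It stood at 60.5 and 96.5 normalized CPM in control, 121 and 188 in DMBA, 155 and 156 in TAM short, 138 and 152 in TAM long, and 2937.8 and 2934.7 in DMBA+TAM. DMBA+TAM was far above the rest, and control was the lowest group, with no overlap with the others. Its log2 fold change in DMBA+TAM against control was 5.23 ± 0.28 (adjusted p = 1.90e-07, edgeR).

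**Figure D1:**
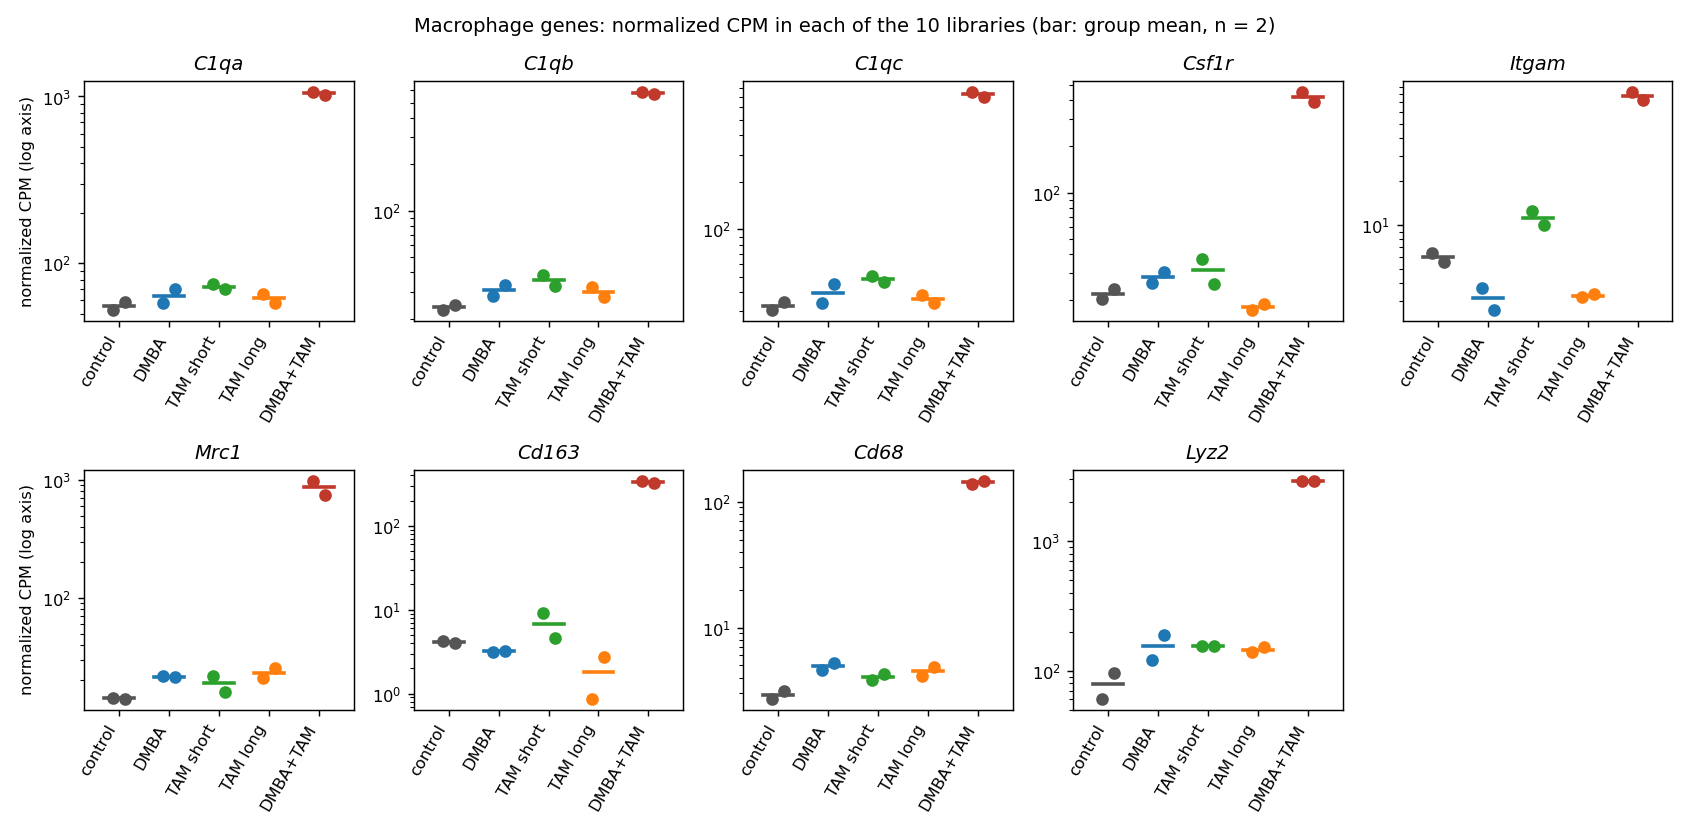
Normalized CPM of each macrophage gene in the 10 libraries, on a log axis; points are libraries, bars are group means of 2. In every panel the DMBA+TAM libraries lie above the other 8, from 5.83 times the highest of them for *Itgam* to 36.4 times for *Cd163*.

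*Lyz2* has a close paralog, *Lyz1*, the lysozyme of Paneth cells of the intestinal crypt. Their coding sequences in GENCODE M21 are identical at 422 of 444 bases (95.0%) and share a run of 118 bases, so that short reads can be hard to place between them. The first 100 coding bases of each are shown because they hold 7 of the 22 differences, which are in capitals.
Lyz1: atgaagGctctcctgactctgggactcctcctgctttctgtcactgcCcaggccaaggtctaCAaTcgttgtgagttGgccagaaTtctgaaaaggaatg
Lyz2: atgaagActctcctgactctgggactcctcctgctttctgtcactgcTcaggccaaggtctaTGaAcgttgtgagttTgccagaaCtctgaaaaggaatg

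*Lyz1* stood at 8819.8 and 7006.8 normalized CPM in control, 1.1 and 3.4 in DMBA, 6108.5 and 4490.5 in TAM short, 1.6 and 2.3 in TAM long, and 23.2 and 18.5 in DMBA+TAM. It was thus high in control and TAM short and low in the other 6 libraries, and *Lyz2* did not follow that split. Of the summed counts of *Lyz1* and *Lyz2*, *Lyz2* made 0.681 and 1.36% in control, 2.48 and 3.36% in TAM short, 98.2 to 99.1% in DMBA and TAM long, and 99.2 and 99.4% in DMBA+TAM. In control and TAM short, the counts of *Lyz2* are uncertain, since a small share of misplaced *Lyz1* reads would be of their size.

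To ask whether the rise in DMBA+TAM depends on the group it is set against, the 9 genes were compared with each other group. These 4 comparisons share the DMBA+TAM libraries and are not independent of each other. All 9 genes were higher in each of them, where the share of all genes tested that were higher was 29.0% with control as the reference, 25.2% with DMBA, 25.3% with TAM long and 29.3% with TAM short. In the same order, the members had median log2 fold changes of 4.6, 4.25, 4.53 and 4.02, and all genes had medians of -0.17, -0.14, -0.14 and -0.14. The adjusted p of the members (edgeR) ranged from 1.23e-08 to 3.11e-07 for control, 2.71e-08 to 8.32e-07 for DMBA, 2.28e-08 to 7.01e-07 for TAM long, and 1.47e-08 to 1.31e-06 for TAM short. Both DMBA+TAM libraries were above all 8 others for 9 of 9 members and for 24.7% of all genes tested. The lower DMBA+TAM library was at least 4 times the highest other library for 9 of 9 members and for 6.47% of all genes tested. Since the members were chosen with earlier results of these data known, these shares are set side by side as a description.

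All 9 members passed the filter on low counts, also when it was applied to the 8 libraries without DMBA+TAM. The changes differed with the reference group for a few members. With control, DMBA, TAM long and TAM short as the reference, *Cd163* was 6.37, 6.72, 7.57 and 5.62 higher on the log2 scale, and *Itgam* was 3.70, 4.62, 4.57 and 2.79 higher. The C1q chains varied least, between 3.84 for *C1qa* against TAM short and 4.6 for *C1qb* against control. The smallest change of the set was that of *Itgam* against TAM short, a fold of 6.9. The largest was that of *Cd163* against TAM long, a fold of 190, which rests on 10 and 28 counts in TAM long. Over the alternatives run, this log2 fold change was between 6.15 and 8.6.

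**Figure D2:**
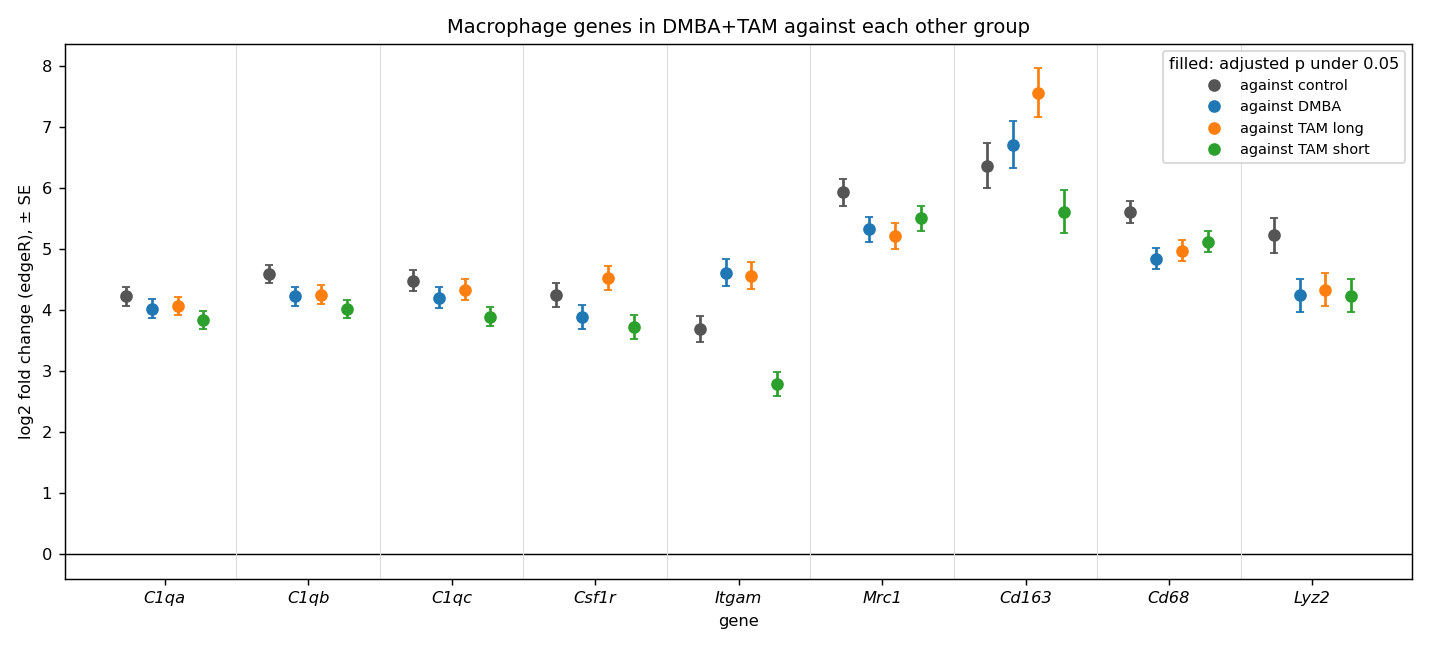
Log2 fold change of each macrophage gene in DMBA+TAM, set against each of the other groups in turn, with the standard error of edgeR's quasi-likelihood fit; filled points passed the adjusted threshold of 0.05. All points are filled and lie between 2.79 (*Itgam* against TAM short) and 7.57 (*Cd163* against TAM long).

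In the comparisons of DMBA+TAM, the calls of the members did not move with the scaling of the libraries. With library size alone in place of TMM, the median of all genes against control moved from -0.17 to 0.31 and the calls from 4687 higher and 5709 lower to 6236 higher and 3764 lower, whereas all 9 members were still called higher in each of the 4 comparisons. The calls over all genes moved from 4075 higher and 4842 lower to 4739 and 3909 against DMBA, from 4093 and 4831 to 4646 and 3937 against TAM long, and from 4734 and 5473 to 5999 and 3775 against TAM short.

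Levels between genes were compared as FPKM. For some members the length behind the deposited FPKM is shorter than the listed exon length. It is 2841 against 4682 bases for *Itgam* and 3722 against 5374 for *Mrc1*. Levels between genes, and the percentages of C1q below, therefore depend on the length used. In DMBA+TAM, *Lyz2* was the highest at 2766.5 and 2752.9 FPKM, followed by *C1qa* at 1220.4 and 1165.2, *C1qc* at 834 and 772, *C1qb* at 641 and 619, and *Mrc1* at 316 and 238. *Cd68* was next at 174 and 184 FPKM, then *Csf1r* at 126 and 108, *Cd163* at 106 and 101, and *Itgam* at 34.7 and 30.5. *Csf1r* and *Cd163* did not overlap, although 108 and 106 FPKM lay close. In sum, the members took 0.876 and 0.820% of all counts in DMBA+TAM and 0.0184 to 0.0389% in the other 8 libraries.

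Set against the summed FPKM of the C1q chains, the other members except *Lyz2* fell into 2 kinds, given as a description without a test. *Mrc1*, *Cd163* and *Cd68* rose beyond C1q: *Cd163* was at 3.94 and 3.94% of C1q in DMBA+TAM and 0.174 to 1.5% in the other 8 libraries, *Mrc1* at 11.7 and 9.32% against 3.08 to 6.11%, and *Cd68* at 6.45 and 7.18% against 2.60 to 4.57%. *Csf1r*, at 4.66 and 4.21%, lay within the 3.14 to 5.62% of the other libraries, as did *Itgam*, at 1.29 and 1.19% within 0.650 to 2.84%. *Lyz2*, at 103 and 108%, lay around the highest of its 47.9 to 106%.

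**Figure D3:**
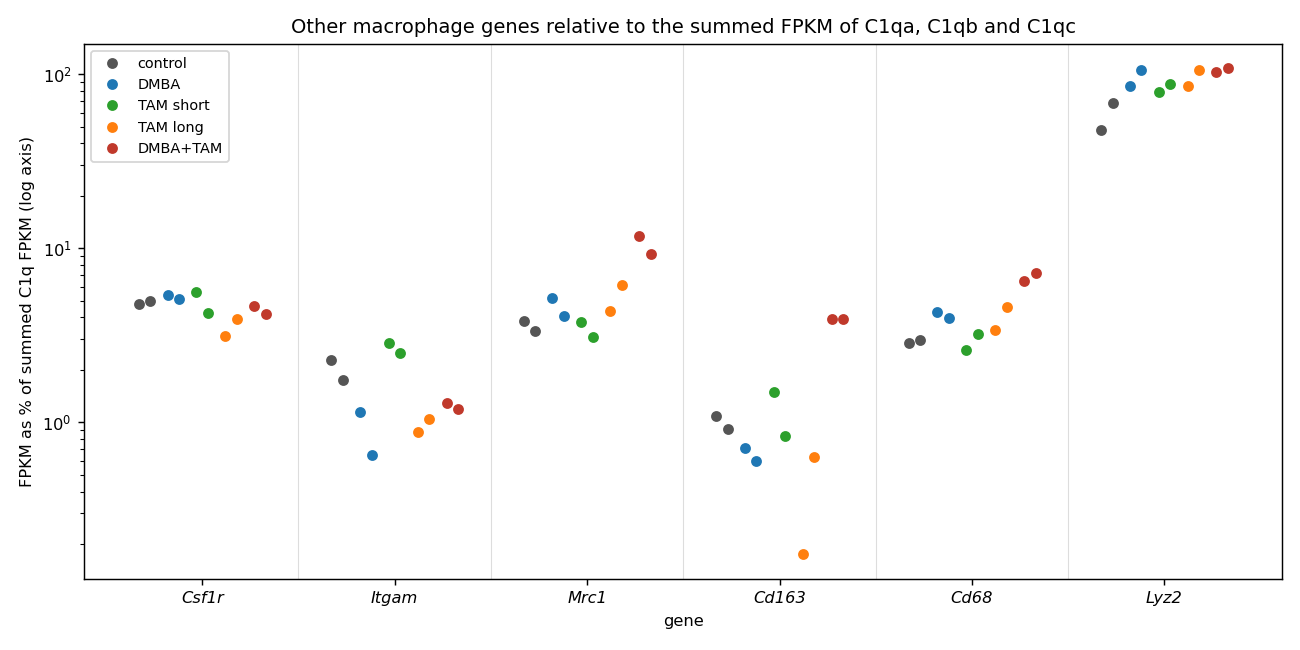
FPKM of the macrophage genes other than C1q as a percent of the summed FPKM of *C1qa*, *C1qb* and *C1qc*, per library, on a log axis; colours mark the groups. *Cd163*, *Mrc1* and *Cd68* lie above the other 8 libraries in DMBA+TAM, whereas *Csf1r* and *Itgam* lie within their range.

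DMBA alone left most of the 9 members close to control. *Cd68*, *Mrc1* and *Lyz2* were higher, by 0.76 ± 0.19, 0.61 ± 0.19 and 0.98 ± 0.24 on the log2 scale (adjusted p = 0.00862, 0.0263 and 0.0082, edgeR), and *Itgam* was lower, at -0.92 ± 0.23 (adjusted p = 0.0088). That makes 3 of 9 members higher, where 24.5% of all genes tested were higher, and 1 of 9 lower, where 23.3% were lower, shares near or below the background. *C1qa*, *C1qb*, *C1qc*, *Csf1r* and *Cd163* did not pass the threshold, with log2 fold changes from -0.36 to 0.37. Of the lists described below, 7 of 12 tissue-resident macrophage genes, 6 of 16 surface genes and 4 of 12 lysosome and oxidase genes were higher, with 1 lower in each. Their medians were 1.16, 0.51 and 0.26. Fibroblast genes were higher for 8 of 10, and of 6 T and NK cell genes 3 were lower and 1 higher. The part of these other cell types was not tested. With library size alone, which moved the median of all genes from 0.07 to 0.37 and the calls from 3961 higher and 3774 lower to 5549 and 2258, 7 members were called higher and *Itgam* was not called (-0.61, adjusted p = 0.0778). With only the libraries of these 2 groups in the fit, 2 members were called, *Mrc1* and *Lyz2*, and without control 1 none was.

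TAM long gave the same calls against the same control libraries, so that the 2 comparisons are not independent. DMBA and TAM long also share the word long and the L in their library names. In TAM long against control, tamoxifen and whatever long stands for therefore cannot be told apart. *Cd68*, *Mrc1* and *Lyz2* were higher, by 0.63 ± 0.19, 0.72 ± 0.19 and 0.89 ± 0.24 on the log2 scale (adjusted p = 0.0272, 0.0122 and 0.0135, edgeR), and *Itgam* was lower, at -0.87 ± 0.23 (adjusted p = 0.0112). The shares over all genes tested were 23.2% higher and 22.8% lower, so that the 3 and 1 of 9 members lay near or below the background. Of the lists described below, 10 of 16 surface genes, 7 of 12 tissue-resident macrophage genes and 6 of 12 lysosome and oxidase genes were higher. In the same order, 1, 2 and 1 were lower. Of 10 fibroblast genes 5 were higher and 1 lower, and of 6 T and NK cell genes 4 were lower and 1 higher. The part of these other cell types was not tested. *Cd163*, at -1.20 ± 0.45, missed the threshold (adjusted p = 0.0535), and its 2 libraries were unlike, at 10 and 28 counts. With DESeq2, and with no filter on low counts, 2 members were called higher and 2 lower. With library size alone, which moved the median of all genes from 0.05 to 0.37 and the calls from 3760 higher and 3684 lower to 5513 and 2144, 6 members were called higher and *Itgam* was not called. Without control 1 no member was called and without control 2 only *Itgam* and *Lyz2* were, and without TAM long 2 there were 2 calls, both lower.

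TAM short had 4 of 9 members higher. They were *C1qb* at 0.58 ± 0.14 and *C1qc* at 0.59 ± 0.15 on the log2 scale (adjusted p = 0.0236 and 0.0314, edgeR), *Itgam* at 0.91 ± 0.21 (adjusted p = 0.0186) and *Lyz2* at 0.99 ± 0.24 (adjusted p = 0.0241). Over all genes tested, 6.52% were higher. The median log2 fold change of the members was 0.58, where that of all genes was -0.04. These calls rest on single libraries: without control 1 or TAM short 1 none remained, without control 2 only *Lyz2* was called, and without TAM short 2 only *Itgam*. Genes that all leukocytes share moved in the same direction, as 5 of 10 were higher, with a median log2 fold change of 1.31, or 8 of 10 with library size alone, and their part in the change of the macrophage genes was not tested.

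TAM long against TAM short separated the members most outside DMBA+TAM. *Itgam* was lower, at -1.78 ± 0.22 on the log2 scale (adjusted p = 0.000207, edgeR), *Cd163* at -1.95 ± 0.42 (adjusted p = 0.00503), *Csf1r* at -0.80 ± 0.19 (adjusted p = 0.00708) and *C1qc* at -0.43 ± 0.15 (adjusted p = 0.0421). That is 4 of 9 members lower, where 20.3% of all genes tested were lower, while 22.0% of all genes were higher. With library size alone, which moved the median of all genes from 0.05 to 0.27 and the calls from 3554 higher and 3281 lower to 4732 and 2039, *C1qc* was not called. Without TAM short 1, *Itgam* alone was called. The genes of all leukocytes moved likewise, with 9 of 10 lower and a median of -1.68, or 6 of 10 with library size alone, and 5 of 6 tested genes of T and NK cells were lower. Fibroblast genes went the other way, with 10 of 10 higher and a median of 0.81, and 4 of 10 endothelial genes were higher. The part of these other cell types was not tested.

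**Figure D4:**
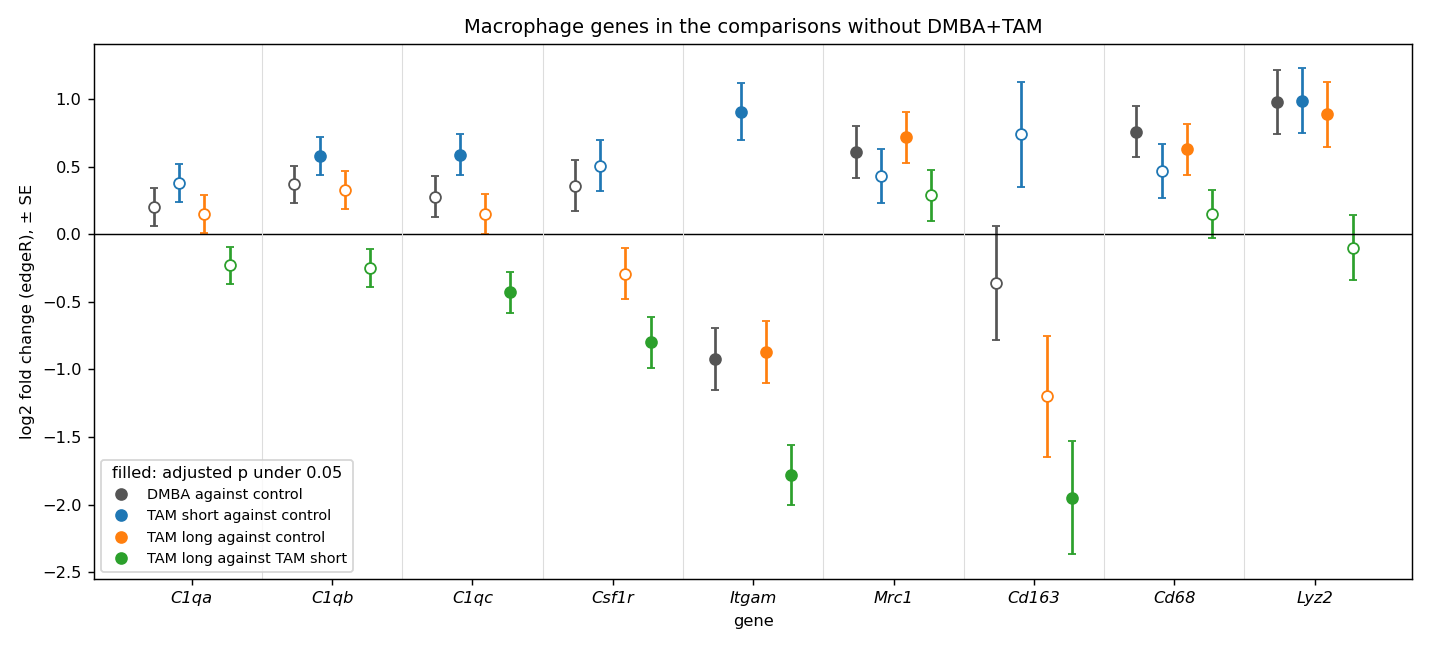
Log2 fold change of each macrophage gene in the comparisons without DMBA+TAM, with the standard error of edgeR's quasi-likelihood fit; filled points passed the adjusted threshold of 0.05 and open points did not. The points lie between -1.95 (*Cd163*, TAM long against TAM short) and 0.99 (*Lyz2*, TAM short against control), far below the changes in DMBA+TAM.

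For 2 of 9 members, all 4 control and TAM short libraries lay above all 4 DMBA and TAM long libraries, as they did for 21.7% of all genes tested. *Itgam* was at 5.5 to 12.5 normalized CPM in the former and 2.6 to 3.7 in the latter, and *Cd163* at 4.0 to 9.0 and 0.861 to 3.3, although *Cd163* was not called against control in DMBA or in TAM long. The opposite split was found for 0 of 9 members and for 24.2% of all genes. A share of 2 of 9 is near the background.

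Most further surface genes of macrophages and monocytes moved with the members in DMBA+TAM. Of 16 tested surface genes, 14 were higher than control and 1 lower, with a median log2 fold change of 4.57. Over all genes tested, 29.0% were higher and 35.3% lower than control. The same shares are the background for the counts against control of the lists below. *Ly6c2*, a monocyte gene named after its value was seen, was not called (1.14, adjusted p = 0.09, edgeR) but was with library size alone (1.62, adjusted p = 0.0149). Against DMBA it was lower (-1.39, adjusted p = 0.0356, edgeR), a call that library size alone removed (-1.16, adjusted p = 0.0501). The largest changes were those of *Trem2*, a lipid-sensing receptor, which had 216 and 265 counts in DMBA+TAM against 2 and 0 in control (adjusted p = 3.42e-08, edgeR), of the chemokine receptor *Ccr2* at 5.99 ± 0.24, and of *Adgre1*, which encodes F4/80, at 5.82 ± 0.25. The gene that fell, named after its value was seen, was *Mertk*, a receptor for dying cells that intestinal tissue also expresses, at -2.22. With TAM short as the reference it was lower too, at -0.85 (adjusted p = 0.00224), as it was with TAM long, at -0.48 (adjusted p = 0.046), but library size alone removed both calls (-0.45 and -0.31, adjusted p = 0.0846 and 0.239), and it was not called against DMBA (0.11, adjusted p = 0.643, edgeR). *Trem2* had 14 to 26 counts in the DMBA and TAM long libraries and 0 to 3 in control and TAM short.

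Of 12 genes of tissue-resident macrophages, *Vsig4* passed the filter on low counts through the DMBA+TAM libraries alone, and of the other 11, 9 were higher, with a median log2 fold change of 4.03. *Lyve1*, at 2.91, is in this list and also in the endothelial list below. The higher genes were led by *Cbr2*, a carbonyl reductase, at 9.42, *F13a1*, the A chain of coagulation factor XIII, at 8.95, and *Folr2*, a folate receptor, at 7.66. These 3 were already higher than control in DMBA and in TAM long, *Cbr2* by 6.22 and 5.33, *F13a1* by 2.94 and 2.51 and *Folr2* by 2.16 and 2.01, so that against DMBA they were 3.2, 6.01 and 5.5 higher in DMBA+TAM. *Timd4* (-0.23) and *Selenop* (-0.43) were not called against control. Against TAM short *Selenop* was lower, at -1.3 (adjusted p = 0.00014, edgeR), and against DMBA it was higher, at 1.72. Of 12 genes of the phagocyte lysosome and oxidase, 12 were higher than control, with a median of 3.83, led by *Gpnmb* at 5.65, *Mpeg1*, a pore-forming protein of phagosomes, at 4.28, and *Ncf1*, a subunit of the NADPH oxidase, at 4.23. Against TAM long the 12 were also higher, with a median of 2.54, and *Gpnmb*, which had 1 and 3 counts in control, was at 2.11.

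The growth factor axis of macrophages had 8 of 8 tested genes higher than control, with a median log2 fold change of 4.09. This list holds ligands as well as receptors, and which cells their RNA came from was not tested. The largest change was that of *Csf3r*, the receptor of G-CSF, at 6.03, then of *Csf2rb*, the shared beta chain of the GM-CSF, IL-3 and IL-5 receptors, at 4.36, and of *Tyrobp*, an adaptor of *Trem2*, at 4.23. The ligands of *Csf1r*, named here after their values were seen, were both higher than control: *Csf1* by 4.0, at 318 and 375 counts in DMBA+TAM, and *Il34* by 1.38 (adjusted p = 0.0215, edgeR), at 20 and 12 counts. *Il34* was not called against DMBA (0.26, adjusted p = 0.627) or TAM long (0.57, adjusted p = 0.286).

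The partners of C1q in the complement system rose as well, with 9 of 10 tested genes higher, 1 lower and a median log2 fold change of 4.19. Which cells their RNA came from was not tested. *C3ar1*, the receptor of the fragment C3a, was highest at 5.79, followed by *C5ar1*, the receptor of C5a, at 5.18, and *C4b*, a component that the C1 complex cleaves, at 4.43. The gene that fell, named after its value was seen, was *C1qbp*, a mostly mitochondrial protein that binds C1q, at -1.73 (adjusted p = 3.46e-05, edgeR).

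Of 7 tested genes of macrophage polarization, *Il6*, *Trem1* and *Chil3* passed the filter on low counts through the DMBA+TAM libraries alone and had to differ, so that their counts are given as a description. Of the other 4, 3 were higher and 1 lower, with a median log2 fold change of 4.61. The 3, named after their values were seen, were *Retnla* at 5.08, *Clec10a* at 4.9 and *Mgl2* at 4.33. *Retnla* was already higher than control in DMBA and in TAM long, by 3.65 and 2.35 (adjusted p = 0.00156 and 0.0201, edgeR). *Il6*, a cytokine of inflammation, had 18 and 17 counts in DMBA+TAM and 0 in both control libraries, at least 48.0-fold higher when control is set to 3 counts over the group. *Trem1*, an amplifier of myeloid inflammation, had 7 and 11 counts in DMBA+TAM against 0 and 1 in control, and *Chil3*, a chitinase-like protein of alternatively activated macrophages, had 18 and 18 against 3 and 1. The gene that fell, named after its value was seen, was *Nos2*, the inducible nitric oxide synthase, at -1.48 (adjusted p = 0.0211, edgeR), a call that library size alone removed (-1.0, adjusted p = 0.0809) and that was not made against DMBA (0.34, adjusted p = 0.609) or TAM long (-0.96, adjusted p = 0.123), whereas against TAM short it was lower by far more (-5.43, adjusted p = 5.38e-06). Of 9 myeloid transcription factors, 5 were higher and 4 lower, with a median of 1.22, where 29.0% of all genes tested were higher and 35.3% lower. *Spi1*, which encodes PU.1, at 4.97, *Runx1* at 4.82 and *Irf5* at 3.95 rose, whereas *Maf* at -1.02, *Irf8* at -1.22, *Klf4* at -1.46 and *Nr1h3* at -1.59 fell. Against DMBA and TAM long, in contrast, 7 of the 9 were higher and 1, *Klf4*, was lower: *Maf* was at 2.93 and 2.79, *Nr1h3* at 1.0 and 1.42, and *Irf8*, not called, at -0.24 and -0.03. Against TAM short the split was again 5 higher and 4 lower, *Maf* being at -0.76, *Nr1h3* at -0.65, *Irf8* at -2.2 and *Klf4* at -1.91, but library size alone removed the calls of *Maf* (-0.36, adjusted p = 0.104) and *Nr1h3* (-0.24, adjusted p = 0.296). Those 4 were named after their values were seen, and in control they had 613 to 4012 counts per library.

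The promoters of the members were read for the letters that such factors bind, because the members moved together. RefSeq promoter windows (GRCm38.p6, 250 bases before the start) were at hand for 7 members, of which 4 lay wholly outside the deposited gene, and those 4 are printed 5′ to 3′ with every match in capitals. The letters searched on both strands were GAGGAA (PU.1), TTGCNNAA (C/EBP) and TGCTGA (the core that MAF proteins bind). The windows are *C1qb* at chr4:136886201-136886450 (minus strand), *Cd163* at chr6:124304401-124304650 (plus), *Itgam* at chr7:128062390-128062639 (plus) and *Cd68* at chr11:69666171-69666420 (minus).
C1qb: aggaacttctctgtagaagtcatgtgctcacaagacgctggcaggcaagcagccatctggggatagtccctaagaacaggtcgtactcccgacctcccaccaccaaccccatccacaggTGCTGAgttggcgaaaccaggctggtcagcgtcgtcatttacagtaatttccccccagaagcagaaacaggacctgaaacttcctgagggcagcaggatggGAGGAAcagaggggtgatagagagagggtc
Cd163: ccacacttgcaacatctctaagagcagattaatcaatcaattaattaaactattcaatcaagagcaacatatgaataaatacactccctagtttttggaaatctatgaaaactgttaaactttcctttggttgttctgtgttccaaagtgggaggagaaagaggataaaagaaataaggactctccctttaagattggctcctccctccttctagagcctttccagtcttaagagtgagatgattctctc
Itgam: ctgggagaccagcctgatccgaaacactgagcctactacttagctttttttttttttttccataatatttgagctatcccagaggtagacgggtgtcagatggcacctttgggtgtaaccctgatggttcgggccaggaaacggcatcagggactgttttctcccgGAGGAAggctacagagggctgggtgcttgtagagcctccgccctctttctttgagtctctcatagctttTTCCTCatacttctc
Cd68: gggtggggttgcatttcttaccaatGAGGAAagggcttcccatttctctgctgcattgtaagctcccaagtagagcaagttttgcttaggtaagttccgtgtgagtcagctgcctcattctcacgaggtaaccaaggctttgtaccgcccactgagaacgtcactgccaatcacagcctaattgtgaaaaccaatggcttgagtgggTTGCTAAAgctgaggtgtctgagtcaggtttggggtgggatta

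GAGGAA was found in 5 of the 7 windows, those of *C1qb*, *C1qc*, *Mrc1*, *Itgam* and *Cd68*, and in 23.3% of 32851 windows of the same length. TTGCNNAA was found in 1 of 7, that of *Cd68*, and in 9.56% of all windows, and TGCTGA in 2 of 7, those of *C1qb* and *Lyz2*, and in 16.1%. No match overlapped another in these windows. In *Cd163*, the member with the largest change against control, none of the 3 was found. A match is a string of letters and not a measured site.

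Other cell types moved in DMBA+TAM too, and their marker lists are given with the members. Of 10 genes of all leukocytes, 10 were higher than control, where 29.0% of all genes tested were higher, with a median log2 fold change of 3.33. *Laptm5*, *Cd53* and *Aif1*, the last itself high in macrophages, led at 4.35, 4.25 and 3.61. Against TAM short, 8 of 10 were higher, with a median of 1.77, and *Cd52* and *Coro1a* were called there with library size alone only. The summed level of the 10 genes was 1465.5 and 1535.7 normalized CPM in DMBA+TAM against 113 to 418 in the other 8 libraries. Per unit of that sum, the members without *Lyz2* stood at 3.01 and 2.58 in DMBA+TAM and 0.501 to 1.58 in the others, and *Csf1r* per *Ptprc*, the gene of the leukocyte antigen CD45, at 2.23 and 2.04 against 0.333 to 1.59. As a sum, the members without *Lyz2* were thus higher relative to leukocyte genes also, a description without a test. It does not hold for each member, as *Itgam* per unit of the leukocyte sum overlapped between DMBA+TAM and control.

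Genes of T and NK cells were near 0, with 5 of 6 tested lower than control, where 35.3% of all genes tested were lower, and summed levels of 2.1 and 3.1 normalized CPM against 14.1 to 73.8. *Cd3g*, *Cd3e* and *Cd3d*, which encode parts of the T cell receptor complex, had 0 counts in both DMBA+TAM libraries, at least 17.3-, 9.31- and 6.15-fold lower than control with DMBA+TAM set to 3 counts over the group. Of 8 B and plasma cell genes, 3 were lower, a share near that background: *Mzb1* and *Tnfrsf17* had 0 counts and *Jchain*, the joining chain of secreted antibodies, 3 and 1 counts, against 5251 and 5773 in control. The summed level was 3.7 and 4.0 normalized CPM against 466 to 1500.7. With genes at 0 counts set to 3 counts over the group, the median log2 fold change was -3.21 over 5 T and NK cell genes and -3.15 over 8 B and plasma cell genes.

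Myeloid cells other than macrophages were less clear. Of 8 dendritic cell genes, *Cd209a* and *Siglech* passed the filter on low counts through DMBA+TAM alone, and of the other 6, 5 were higher, with a median log2 fold change of 2.73, led by *Ccr7* at 4.93 and by *Zbtb46* at 2.97. The lectin *Cd209a* went from 2 and 1 counts in control to 43 and 36, and the sum of the 8 was 78.0 and 71.2 normalized CPM against 7.0 to 14.8. Of 5 tested neutrophil genes, 3 passed the filter through DMBA+TAM alone and had to differ: *S100a8* had 30 and 26 counts there against 2 and 1 in control, *Cxcr2* 8 and 13 against 1 and 0, and *S100a9* 71 and 49 against 5 and 3. Of the other 2, none was higher and 1 was lower, *Ltf*, which had 0 counts in DMBA+TAM. The granulocyte genes *Mpo*, *Elane*, *Camp* and *Ngp* had 0 to 2 counts in every library, and *Ly6g* had 0 in DMBA+TAM, control and TAM short and 71 to 555 in DMBA and TAM long. The neutrophil sum of 60.1 and 39.1 normalized CPM overlapped the 3.4 to 63.0 of the others, whose highest library, DMBA 2, had 555 of its 562 counts from *Ly6g*.

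Fibroblast genes rose as broadly as the members, with 10 of 10 higher and a median log2 fold change of 4.34, led by *Thy1* at 6.61 and the collagens *Col1a1* at 5.24 and *Col1a2* at 5.12. Their sum was 32679 and 33465 normalized CPM in DMBA+TAM against 664 to 2337.1. Of 10 endothelial genes, *Stab2*, at 0 and 2 counts in DMBA+TAM, did not pass the filter without those libraries, and of the other 9, 8 were higher, with a median of 2.65, led by *Cdh5* at 3.76, *Tek* at 3.43 and *Pecam1* at 3.27. All 10 epithelial genes were lower, with a median of -9.14. *Vil1* went from 33842 and 33447 counts in control to 1 and 1, *Epcam* was at -10.76 and *Krt20* at -10.11. The rise of the macrophage genes came with the loss of epithelial RNA and the rise of stromal RNA in the same 2 libraries, and the part of these in it was not tested.

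**Figure D5:**
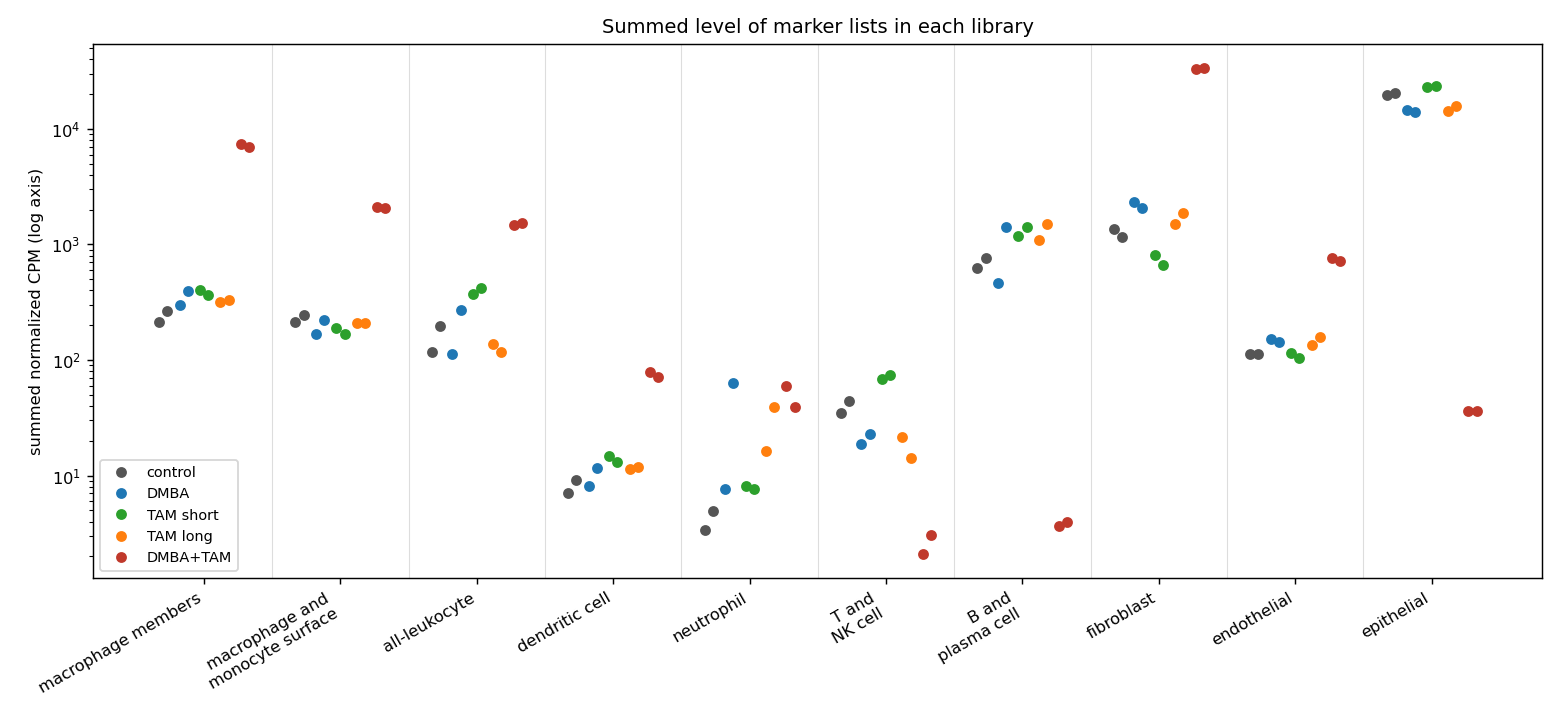
Summed normalized CPM of 10 marker lists in each library, on a log axis; colours mark the groups. DMBA+TAM is highest for macrophage, leukocyte, dendritic cell, fibroblast and endothelial lists and lowest for T and NK cell, B and plasma cell and epithelial lists.

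The genes with a pattern most like the members were sought by Pearson's r over the 10 libraries with the mean of log2(normalized CPM + 1) of the members, over the 10090 genes whose mean reached 10 normalized CPM. *Fyb* was closest at 0.9982, followed by *Pirb* at 0.997, *Lilrb4a* at 0.9967, *Csf2rb* at 0.9966 and *Clec10a* at 0.996. *Pirb* and *Lilrb4a* are inhibitory receptors of myeloid cells, *Fyb* an adaptor of leukocyte signalling and *Clec10a* a lectin of macrophages and dendritic cells. Their means were 69.5, 87.6, 117, 98.0 and 89.0 normalized CPM in DMBA+TAM and between 2.96 and 7.83 in the other groups, so that all 5 reached the minimum mean through DMBA+TAM alone, and their r is a description. In all, 47 genes had an r above 0.99 and 412 above 0.95, values over 10 points of which the 2 of DMBA+TAM stood far from the rest.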

How the data were processed

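The members and gene lists were chosen with earlier results of these data known. One member and some listed genes are not reported here and entered no member or list value. The authors mapped reads to the mouse genome (GRCm38.p6) with TopHat 2.0.12, counted reads per gene with HTSeq 0.6.1 and deposited a single table with the read count and the FPKM of each gene in each library. Of its 47074 lines, 5 were parts of split lines without counts and 20677 genes had no count. The authors' columns of fold changes and p-values of their own comparisons were not used. The FPKM of a gene followed its count and library total in every library.

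The test on counts was that of edgeR 4.0.16 (R 4.3.3; filterByExpr by group, TMM, glmQLFit and glmQLFTest with 1 mean for each of 5 groups over all 10 libraries, two-sided). Benjamini-Hochberg adjustment was over 16179 genes, with a threshold of 0.05. Standard errors are the absolute log2 fold change divided by the square root of F. The script was tested on simulated data. Named genes are the 9 members described, up to 3 genes per list with the largest absolute change past the threshold in DMBA+TAM against control, list markers at 0 counts, the paralog Lyz1, and the 5 genes most correlated with the members. Lists came from general knowledge. Alternatives were library size alone, DESeq2 1.42.0, no filter, a fit of the compared groups alone, a block for the replicate number, limma 3.58.1 on log2(FPKM + 1) or log2(FPKM + 0.1), counts thinned to 1592366, a log2 change of 1 or more in size, and leaving out each library. Coding sequences were aligned with Biopython 1.88.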

Additional observations from a re-analysis of the deposited data

How the results depend on the processing

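The 9 of 9 calls in each comparison of DMBA+TAM held under every alternative run, with log2 fold changes of 3.59 to 6.85 against control, 3.78 to 8.15 against DMBA, 3.92 to 8.60 against TAM long and 2.63 to 6.6 against TAM short, and the highest adjusted p over these were 0.0031, 0.000634, 0.00105 and 0.0198. The smaller comparisons depended on the setting, and the cause was not tested. From 4 members called in each, thinned counts left 0 for DMBA against control, 2 for TAM long against control, 0 for TAM short against control and 0 for TAM long against TAM short, and a required log2 change of 1 or more in size left 0, 0, 0 and 2. For DMBA against control, library size alone and both limma fits gave 7 and the fit of only these groups 2, and for TAM long against TAM short both limma fits gave 2. For TAM short against control, no filter and the fit of only these groups gave 6 each, all higher. Leaving out each library gave 0 to 5, 0 to 3, 0 to 1 and 1 to 3 calls; a group left with 1 library is assumed to vary like the others. Same-numbered libraries of DMBA and TAM long deviated from their group means in part alike, with an r of 0.323 over genes. For all other pairs of groups, r was from -0.06 to 0.077. With the replicate block the counts were 4, 4, 4 and 3, and 9 in each comparison of DMBA+TAM.

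Some single changes turned sign, none of them among the comparisons of DMBA+TAM. With thinned counts these were Cd68 (-0.04) and C1qb (-0.03) for DMBA against control, Cd68 (-1.05) and Csf1r (1.08) for TAM long against control, Cd163 (-0.29) for TAM short against control, and Cd68 (-1.12), Csf1r (0.33), C1qa (0.19), C1qc (0.02) and Lyz2 (0.32) for TAM long against TAM short. With library size alone and both limma fits, Csf1r for TAM long against control was 0.03, and Lyz2 for TAM long against TAM short was 0.13, 0.12 and 0.12. Depth limits the DMBA+TAM libraries most, where 3 counts are 1.58 and 1.32 normalized CPM.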
